A study of Mus musculus with 6 samples.

Results

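The nuclear-encoded genes of oxidative phosphorylation were described in lungs of Hopx-null and wild-type mouse embryos. They were taken as every gene whose symbol starts with Nduf (complex I), Sdha, Sdhb, Sdhc or Sdhd (complex II), Uqcr (complex III), Cox4 to Cox8 (complex IV) or Atp5 (complex V, the ATP synthase), where a probe set named that gene alone. This gave 94 of the 18193 genes measured, 82 of them subunits and 12 of them assembly factors that the prefixes also catch (Ndufaf and Sdhaf genes). The study set 3 lungs homozygous for the Hopx null allele (Hopx -/-) against 3 lungs with both Hopx copies intact (Hopx +/+). All 6 were lungs microdissected from embryos at E16.5, a late stage of gestation, on a strain background labelled only as mixed. The labels call the lungs biological replicates, and they name no treatment, litter or other allele. Total RNA was read on Affymetrix arrays, 1 per lung, and the values are on a log2 scale, so a difference of 1 is a doubling.

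The respiratory chain sits in the inner mitochondrial membrane. Complex I takes electrons from NADH and complex II takes them from succinate. Complex III passes them through cytochrome c to complex IV, which reduces oxygen. Complexes I, III and IV pump protons, and complex V lets the protons flow back to make ATP. The mitochondrial genome encodes a few core subunits, and the genes described here, from the cell nucleus, supply the others. Several complex IV subunits exist in pairs, with a widely expressed form and a form known from heart and skeletal muscle, testis or lung. The homeodomain protein Hopx, which does not bind DNA itself, is a marker of type I alveolar cells and is also known from heart development.

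In Hopx-null lungs, 77 of the 94 genes (81.9%) had a higher mean than in wild-type lungs and 17 had a lower one. The median difference was 0.061 (1.04-fold), and the middle of the distribution ran between 0.0094 and 0.12 (quartiles). Among all 18193 genes, 52.2% had a higher mean in Hopx-null lungs and the median difference was 0.008. Most members were bright on the arrays, 80 of 94 above the upper quartile of all probe sets. Among the 6972 genes above that quartile, 51.2% were higher in Hopx-null lungs, with a median difference of 0.0033. Among the 11438 genes above the median of all probe sets, which 90 of the 94 members exceed, 54.9% were higher. In limma's moderated test across the whole table, 0 members passed an adjusted p of 0.05 (Benjamini-Hochberg), and the smallest adjusted p of a member was 0.878. That threshold called 2 of 45037 probe sets (0.00444%), both of them Hopx. At an unadjusted p under 0.05, 0 members were higher, against 2.9% of all genes, and 1 was lower (1.06%), against 1.64% of all genes (4.54% in either direction). The same fit set narrow limits on most members. For 84 of 94 (89.4%) the 95% interval of the difference lay within 0.5 of 0 in either direction (1.41-fold). That held for 68.9% of all genes and for 83.0% of the genes above the upper quartile. The intervals carry no adjustment for the number of genes.

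The genotypes did not overlap for 17 members. All 3 Hopx-null lungs lay above all 3 wild-type lungs for 15 of them (16.0%) and below for 2 (2.13%). Over all genes these shares were 6.21% and 4.31% (10.5% in either direction), and 6.89% of the genes above the median lay above without overlap. The members varied little between lungs of a genotype, with a median standard deviation of 0.075, against 0.146 over all genes and 0.108 over the genes above the upper quartile. Where a gene had several probe sets, the one with the highest mean over the 6 lungs stood for it. Of the 53 members with several, 32 had all of theirs on the same side of 0.

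**Figure D1:**
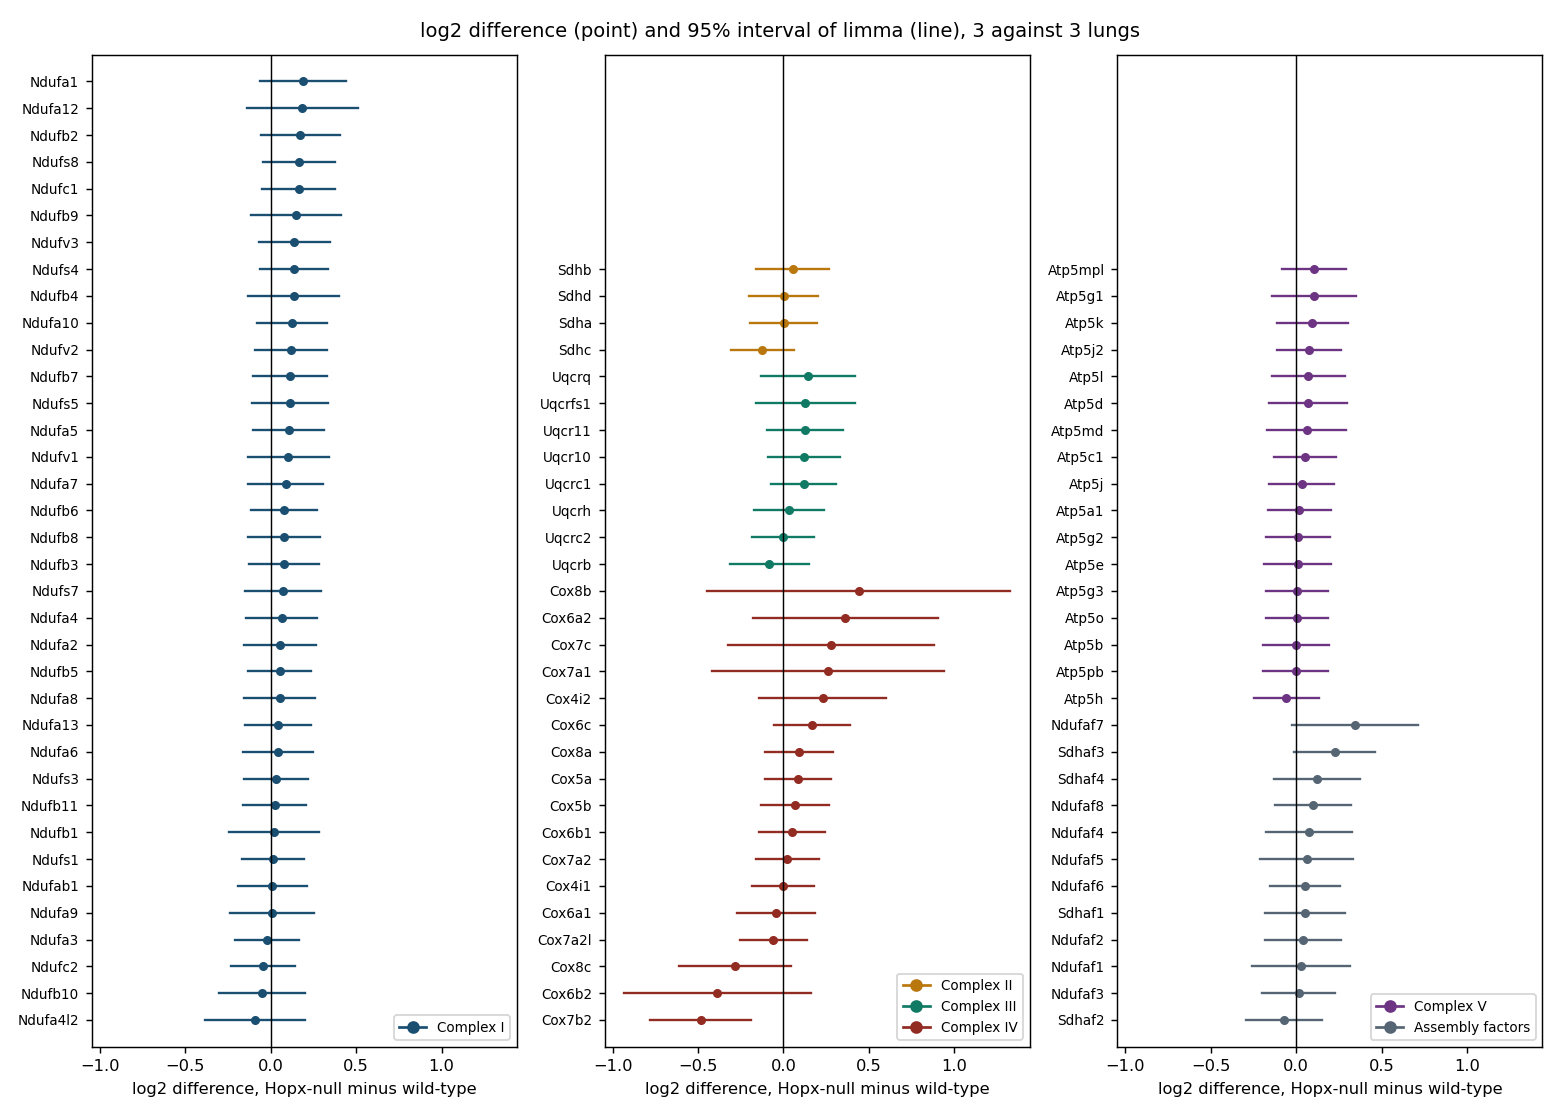
Hopx-null minus wild-type difference (log2) of each member, with 1 point per gene and its 95% limma interval as a line; colours mark the complexes and the assembly factors. Complex I lies mostly right of 0, while complex IV has the widest spread, between -0.49 (Cox7b2) and 0.44 (Cox8b).

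The libraries were close to each other. Arrays correlated at 0.991 to 0.995 within a genotype and at 0.989 to 0.995 between genotypes, over all probe sets. Hopx checked the labels: the probe set with the larger difference read 4.59, 4.59 and 4.96 in Hopx-null lungs, against 10.96, 10.59 and 10.41 in wild-type lungs, and the other probe set differed by -1.91. Lung tissue was borne out by Sftpc, the surfactant protein C gene, at 13.7 to 13.8 in every lung. Of 8 lung epithelium markers, Sftpc among them, 4 were higher and 4 lower in Hopx-null lungs (median -0.029). Sftpb (0.11) and Sftpa1 (0.19) were higher without overlap, and Nkx2-1 (-0.23) was lower without overlap. Genotypes thus did not overlap for 37.5% of these markers, against 10.5% of all genes. Sex-linked signal was not balanced between genotypes. The Y-linked gene Eif2s3y was at 2.91, 2.89 and 3.05 in Hopx-null lungs, against 3.13, 11.72 and 11.56 in wild-type lungs, so high Y-linked signal was seen in wild-type lungs 2 and 3 alone. Several cartilage and fat markers set the same lungs apart. Col2a1, a cartilage collagen, read 6.70, 4.98 and 7.38 in Hopx-null lungs, against 4.48, 9.57 and 9.67 in wild-type lungs, and all 7 cartilage markers had a lower mean in Hopx-null lungs (median -1.55). Adipoq, a fat cell hormone, lay between 2.86 and 3.19 in Hopx-null lungs, against 2.92, 6.37 and 5.64 in wild-type lungs. Of 7 brown fat markers, 6 had a lower mean in Hopx-null lungs, including Elovl3, which was near the floor of the arrays in every lung. The other, Prdm16, was higher in Hopx-null lungs by 0.425, with its lowest values in wild-type lungs 2 and 3. The cartilage marker Matn1 and the fat marker Ppara did not set wild-type lungs 2 and 3 apart from the other lungs. The part of these tissues in the members' values was not tested. In whole tissue, fewer cells of a type and less RNA per cell cannot be told apart.

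Complex I, the largest group, had 32 of 36 genes higher in Hopx-null lungs and a median difference of 0.078. All 14 genes of the matrix arm, which holds the flavin and iron-sulphur clusters that carry electrons, were higher, with a median of 0.095. In that arm Hopx-null lung 3 held the highest value of 11 genes (78.6%) and wild-type lung 3 the lowest of 9 (64.3%). Over all genes these shares were 22.7% and 24.0%. In the membrane arm, which pumps protons, 16 of 19 were higher, with a median of 0.078. The genotypes did not overlap for 7 complex I genes (19.4%), all higher in Hopx-null lungs, 5 of them in the matrix arm (35.7% of that arm). Over all genes, 6.21% lay above without overlap. Ndufs8, an iron-sulphur subunit, read 11.36, 11.34 and 11.54 in Hopx-null lungs, against 11.26, 11.25 and 11.24 in wild-type lungs, a difference of 0.17 (SE 0.09). Ndufc1, a membrane arm subunit, read 12.35, 12.35 and 12.48 in Hopx-null lungs, against 12.19, 12.33 and 12.17 in wild-type lungs, and its second probe set also separated the genotypes by 0.16. In both genes the highest value belonged to Hopx-null lung 3. Of the other 5 Ndufs8 probe sets, 1 was higher without overlap (0.20), 3 overlapped (0.02 to 0.08) and the dimmest was lower without overlap (-0.09). The other separated genes, Ndufv3, Ndufa10, Ndufa5, Ndufs4 and Ndufv2, differed by 0.10 to 0.14. The other Ndufs4 probe sets overlapped, at 0.02, -0.06 and 0.44. So did the second Ndufa10 probe set (0.0002) and the other Ndufv2 probe sets (0.12 and 0.13). The second Ndufa5 probe set also separated the genotypes (0.11). These separated genes were named after their values were seen.

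At their brightest probe sets, other core subunits of complex I overlapped between genotypes. Ndufs1, the largest iron-sulphur subunit, read 10.51, 10.54 and 10.54 in Hopx-null lungs, against 10.52, 10.50 and 10.54 in wild-type lungs, a difference of 0.013 with a 95% interval from -0.17 to 0.19. Ndufv1, which binds NADH, averaged 12.39 ± 0.13 in Hopx-null lungs and 12.29 ± 0.06 in wild-type lungs (SD, n = 3 each). At this probe set the excess came from Hopx-null lung 3 at 12.54. The other Hopx-null lungs read 12.30 and 12.33, inside the wild-type range of 12.22 to 12.32 or just above it. A second bright Ndufv1 probe set separated the genotypes, by 0.12. It read 12.24, 12.26 and 12.45 in Hopx-null lungs, against 12.22, 12.23 and 12.14 in wild-type lungs. The third Ndufv1 probe set overlapped (0.06). Ndufa1 and Ndufb11 are on the X chromosome. Ndufa1 had the largest positive difference in complex I, 0.19 (95% interval -0.06 to 0.44), with 11.38, 11.41 and 11.64 in Hopx-null lungs, against 11.24, 11.38 and 11.23 in wild-type lungs. Ndufb11 differed by 0.02, with overlapping lungs. The most negative complex I difference was -0.09 in Ndufa4l2, a gene known to be induced by hypoxia. Ndufa4l2 read 9.67 in wild-type lung 3 and between 9.26 and 9.37 in the other 5 lungs, so that 1 lung sets the difference. Its relative Ndufa4, counted here by its symbol although its protein is now placed in complex IV, differed by 0.07 with overlapping lungs.

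Complex II, which is also the succinate dehydrogenase of the citric acid cycle, was flat, with a median difference of 0.0011 over its 4 genes. Sdha, the flavoprotein that oxidises succinate, read 12.04, 12.01 and 11.96 in Hopx-null lungs, against 11.98, 12.07 and 11.96 in wild-type lungs. Sdhb, the iron-sulphur subunit, averaged 10.81 ± 0.10 in Hopx-null lungs and 10.76 ± 0.04 in wild-type lungs. Sdhc, a membrane anchor, was the exception among the 4. Sdhc read 10.16, 10.21 and 10.21 in Hopx-null lungs, against 10.31, 10.34 and 10.31 in wild-type lungs. Its lungs did not overlap, and the difference was -0.12 (95% interval -0.31 to 0.06). The second Sdhc probe set differed by -0.27, but its lungs overlapped.

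In complex III, 6 of 8 genes were higher in Hopx-null lungs and the median difference was 0.12. Uqcrc1, a core protein facing the matrix, was the separated one, with 9.44, 9.48 and 9.56 in Hopx-null lungs, against 9.37, 9.37 and 9.39 in wild-type lungs. That was 12.5% of the 8 genes, against 6.21% of all genes that lay above. Uqcrfs1, the Rieske iron-sulphur protein, read 10.83, 10.997 and 11.22 in Hopx-null lungs, against 10.88, 10.81 and 10.98 in wild-type lungs. Uqcrq, a small subunit with the largest positive difference of the complex, read 10.19, 10.33 and 10.51 in Hopx-null lungs, against 10.27, 10.25 and 10.08 in wild-type lungs. Both overlapped between genotypes, with the top value in Hopx-null lung 3. Uqcrb ran the other way at -0.08, with Hopx-null lung 3 the lowest of the 6, but its second probe set differed by 0.05 with that lung the highest. Without both lungs numbered 3 the Uqcrb difference was 0.01. The catalytic cytochrome c1 gene, Cyc1, which the prefixes do not catch, was higher by 0.15 without overlap, whereas Cycs, the soluble carrier cytochrome c, differed by -0.02.

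Complex V had the tightest differences, from -0.06 (Atp5h, in the stalk) to 0.10 (Atp5mpl, a small membrane protein), with 14 of 17 genes higher in Hopx-null lungs and a median of 0.031. The catalytic head barely differed. Atp5b, the catalytic beta subunit, read 12.02, 12.09 and 11.96 in Hopx-null lungs, against 12.06, 12.005 and 12.01 in wild-type lungs, and Atp5a1, the alpha subunit, differed by 0.02. The genotypes did not overlap for 4 genes (23.5%, against 6.21% of all genes that lay above). All were higher in Hopx-null lungs by 0.05 to 0.10: Atp5mpl, Atp5k, Atp5c1 (the gamma subunit of the rotor) and Atp5j2. The further probe sets of Atp5k (0.07 and 0.04), Atp5c1 (0.19) and Atp5j2 (0.06 and 0.14) were higher but overlapped. Atp5mpl read 12.22, 12.19 and 12.28 in Hopx-null lungs, against 12.12, 12.11 and 12.14 in wild-type lungs. The 3 genes for the same c-ring protein, Atp5g1, Atp5g2 and Atp5g3, differed by 0.10, 0.01 and 0.01, and the second Atp5g1 probe set by -0.14.

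Among assembly factors, 11 of 12 were higher in Hopx-null lungs, with a median of 0.057. Ndufaf7, a methyltransferase that modifies a complex I subunit, had the largest difference, 0.35 (95% interval -0.02 to 0.71), with 8.54, 8.95 and 9.02 in Hopx-null lungs, against 8.52, 8.63 and 8.33 in wild-type lungs. Its lungs overlapped through Hopx-null lung 1. Sdhaf3, which helps insert the iron-sulphur clusters of complex II, was the separated one, with 7.88, 7.73 and 7.82 in Hopx-null lungs, against 7.67, 7.65 and 7.45 in wild-type lungs. Its second probe set, at a mean of 3.13, overlapped (-0.05). The 1 separated gene was 8.33% of the 12, against 6.21% of all genes that lay above. Sdhaf2, which helps attach the flavin to Sdha, was lower by a difference of -0.07.

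Complex IV was the most mixed of the larger groups, with 11 of 17 genes higher in Hopx-null lungs and a median of 0.067. Its widely expressed subunits ranged from -0.06 (Cox7a2l) to 0.28 (Cox7c), with Cox4i1 near 0. Cox4i1 read 12.36, 12.37 and 12.32 in Hopx-null lungs, against 12.35, 12.36 and 12.35 in wild-type lungs. Cox5b, Cox6b1 and Cox7a2 differed by 0.02 to 0.07 and Cox6a1 by -0.05. Cox7a2l, which joins complexes III and IV into supercomplexes, differed by -0.06. Cox6c and Cox5a were separated, higher in Hopx-null lungs (11.8% of the 17, against 6.21% of all genes that lay above). Cox7b2, described further on, was lower without overlap (5.88%, against 4.31% of all genes). Cox6c read 12.85, 12.92 and 13.05 in Hopx-null lungs, against 12.81, 12.81 and 12.70 in wild-type lungs, and its second probe set was higher by 0.09, also without overlap. Cox5a read 12.09, 12.15 and 12.22 in Hopx-null lungs, against 12.07, 12.04 and 12.08 in wild-type lungs, but its other probe sets were at -0.05 and -0.06.

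The tissue-restricted isoforms gave the widest values. Over 8 such isoforms of complexes I and IV, known from muscle, testis, lung or hypoxia, 4 were higher and 4 lower in Hopx-null lungs, and their median standard deviation within a genotype was 0.278. Cox4i2, a form that lung is known for, read 10.17, 10.08 and 10.29 in Hopx-null lungs, against 10.11, 10.13 and 9.62 in wild-type lungs, so its difference of 0.23 rested on wild-type lung 3. Cox6b2, known from testis, was lower by a difference of -0.39, with 10.34, 9.83 and 10.23 in Hopx-null lungs, against 10.20, 10.38 and 10.98 in wild-type lungs. Neither interval left out 0. Cox7b2, another testis form, was the 1 member under the unadjusted threshold of 0.05 (its adjusted p was 0.878 in limma). Cox7b2 read 3.81, 3.87 and 3.67 in Hopx-null lungs, against 4.41, 4.05 and 4.35 in wild-type lungs, a difference of -0.49 (SE 0.12). These values lie around the lower quartile of all probe sets (4.24 to 4.30), where an array can hardly tell a dim transcript from background. Cox7b2 is on chromosome 5, as Hopx is, with 46 measured genes between them.

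The 3 isoforms known from striated muscle, Cox6a2, Cox7a1 and Cox8b, varied widely between lungs of a genotype and overlapped between genotypes. Cox8b read 8.22, 7.96 and 9.05 in Hopx-null lungs, against 7.29, 8.23 and 8.39 in wild-type lungs, the largest positive difference of any member (0.44, 95% interval -0.45 to 1.33). Cox7a1 read 7.07, 6.99 and 7.74 in Hopx-null lungs, against 6.47, 7.22 and 7.32 in wild-type lungs. Cox6a2 ranged from 9.37 to 9.97 in Hopx-null lungs and from 8.87 to 9.58 in wild-type lungs. Hopx-null lung 3 was the highest and wild-type lung 1 the lowest in all 3 genes. The mean of 12 heart muscle markers had the same extremes, at 9.95, 9.88 and 10.32 in Hopx-null lungs, against 9.49, 9.93 and 10.29 in wild-type lungs. Single markers differed: Hopx-null lung 3 was the highest for 6 of 12 and wild-type lung 3 for 5. Wild-type lung 1 was the lowest for 8 and wild-type lung 3 for 3. Of these markers, 9 of 12 lay above the upper quartile of all probe sets, and 9 of 12 were higher in Hopx-null lungs (median difference 0.14). None of 9 skeletal muscle markers lay above that quartile. The part of heart muscle RNA in the isoforms' values was not tested. Without wild-type lung 1 the Cox7a1 difference was -0.005. Their widely expressed counterparts spread less and each shared at most 1 of these extremes: Cox6a1 was lowest in Hopx-null lung 3, Cox7a2 was lowest in wild-type lung 1, and Cox8a was highest in Hopx-null lung 3.

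**Figure D2:**
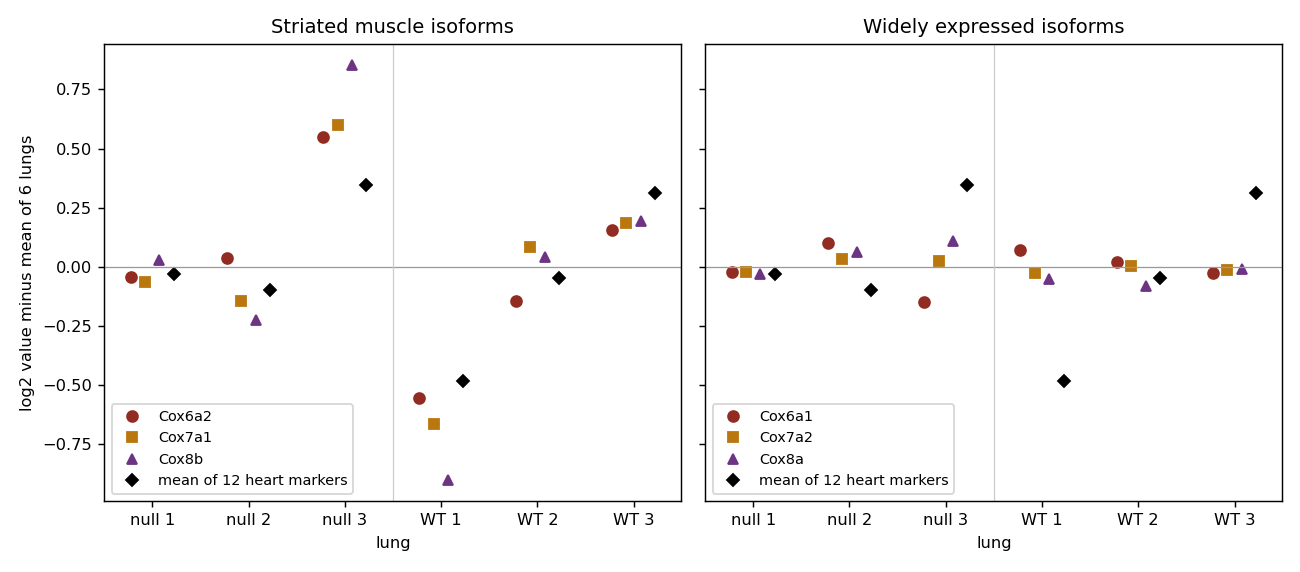
Log2 values of 6 isoforms in each lung, as deviations from the gene's mean over the 6 lungs, for the striated muscle isoforms (left) and the widely expressed ones (right), with the mean of 12 heart markers as black diamonds. The striated isoforms peak in Hopx-null lung 3 and are lowest in wild-type lung 1, as is the mean of the heart markers, though not each marker. The widely expressed isoforms spread less.

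A further pair of genes with wide spread was chosen after their values were seen. Cox7c read 9.03, 9.77 and 9.55 in Hopx-null lungs, against 9.59, 8.84 and 9.08 in wild-type lungs. Ndufa12 read 11.64, 11.91 and 11.99 in Hopx-null lungs, against 11.85, 11.63 and 11.50 in wild-type lungs. In both, Hopx-null lungs 2 and 3 and wild-type lung 1 were the 3 high ones, and 1 further probe set of each gene had the same 3 lungs high. Other members, among them Uqcrq, Cox5b, Ndufb7, Ndufa7 and Atp5g1, had the same 3 lungs on top with smaller differences. The share of members or of all genes with these 3 lungs on top was not counted. The other Ndufa12 probe sets differed by 0.01 and -0.05.

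The lungs did not contribute evenly to the higher values of the 94 genes. As a deviation from each gene's mean over the 6 lungs, the median over members was -0.0027, 0.016 and 0.080 in Hopx-null lungs, against -0.023, -0.012 and -0.040 in wild-type lungs. Hopx-null lung 3 held the highest value of 52 of 94 members (55.3%), against 22.7% of all genes. Wild-type lung 3 held the lowest value of 34 members (36.2%), against 24.0% of all genes. The difference between genotypes was therefore largest between the lungs numbered 3 and small among the others. Without Hopx-null lung 3, 74 of 94 members were higher in Hopx-null lungs and the median difference was 0.034. With any 1 of the 6 lungs left out, 70 to 77 members were higher, with medians from 0.034 to 0.083, and single members changed sign, such as Sdhb and Uqcrh without Hopx-null lung 3. Without both lungs numbered 3, 67 of 94 were higher, against 51.2% of all genes, and the median was 0.022.

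**Figure D3:**
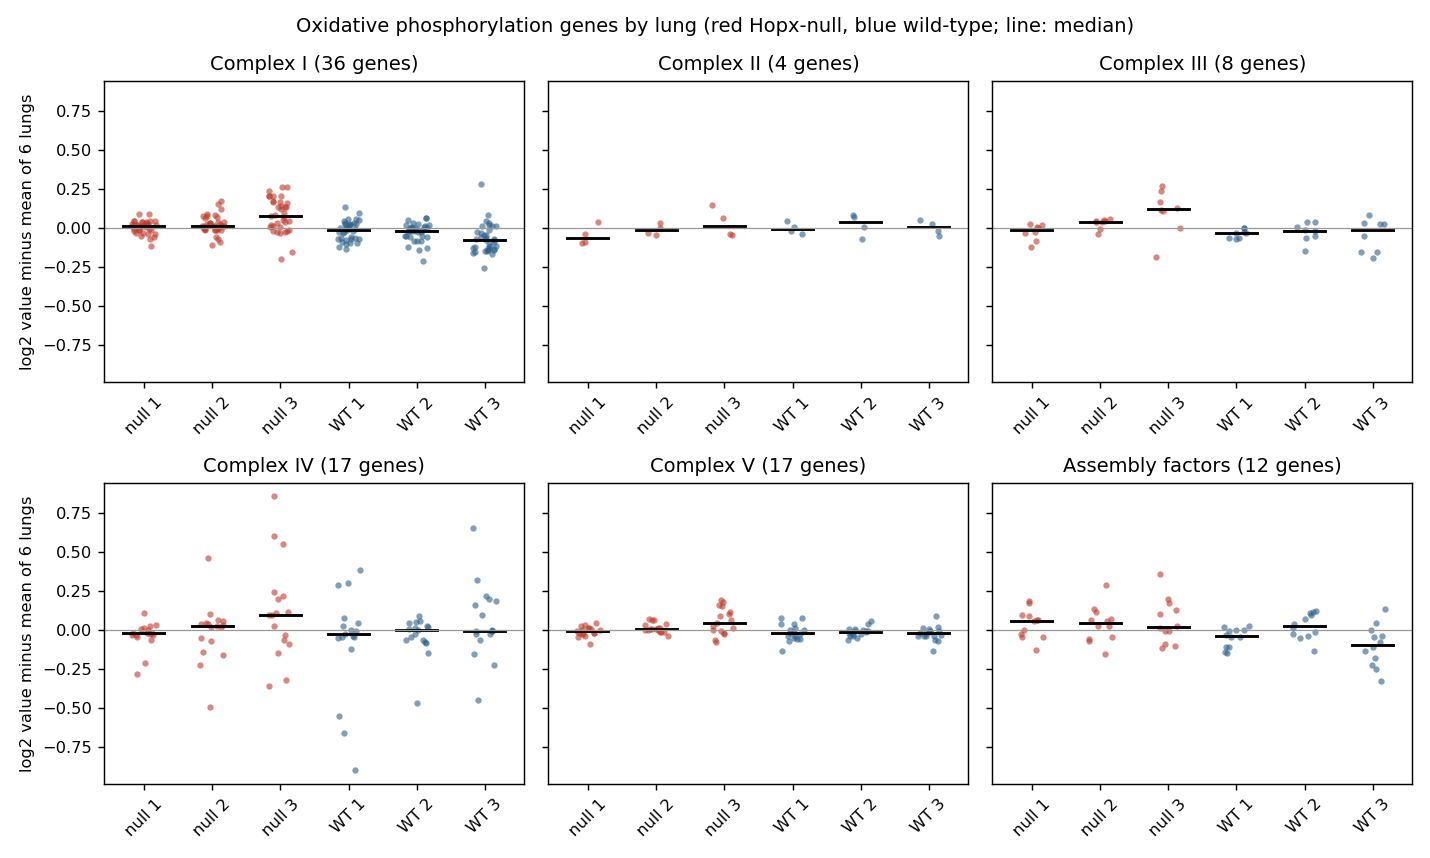
Deviation of each gene from its mean over the 6 lungs (log2) in each lung, as 1 point per gene, with a panel for each complex and for the assembly factors; lines are medians, and Hopx-null lungs (red) stand left of wild-type lungs (blue). Over all 94 genes the medians are -0.0027, 0.016 and 0.080 in Hopx-null lungs and -0.023, -0.012 and -0.040 in wild-type lungs.

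Hopx-null lung 3 also stood apart in a measure of RNA quality, the excess of signal at the 3′ end over the 5′ end of control transcripts. For actin it was 1.22, 1.19 and 1.51 in Hopx-null lungs, against 1.15, 1.25 and 1.17 in wild-type lungs. For Gapdh it was 1.58, 1.47 and 1.72 in Hopx-null lungs, against 1.46, 1.597 and 1.42 in wild-type lungs. The lung was the highest of 6 in both, and the part of this in the members' values was not tested. A set of 50 genes with Rpl or Rps symbols, most of them for cytosolic ribosomal proteins, was chosen for comparison after the data were seen. It includes Rps19bp1, a binding protein of Rps19, and the like-named Rpl7l1. Of the 50, 10 were higher and 40 lower in Hopx-null lungs (median -0.033), and Hopx-null lung 3 held the lowest value of 27. With the Y-linked signal as a covariate in the fit, 69 of 94 members were higher in Hopx-null lungs, with a median of 0.046. Only wild-type lung 1 shares the low Y-linked signal of the Hopx-null lungs, so this genotype difference rests almost wholly on that 1 wild-type lung.

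**Figure D4:**
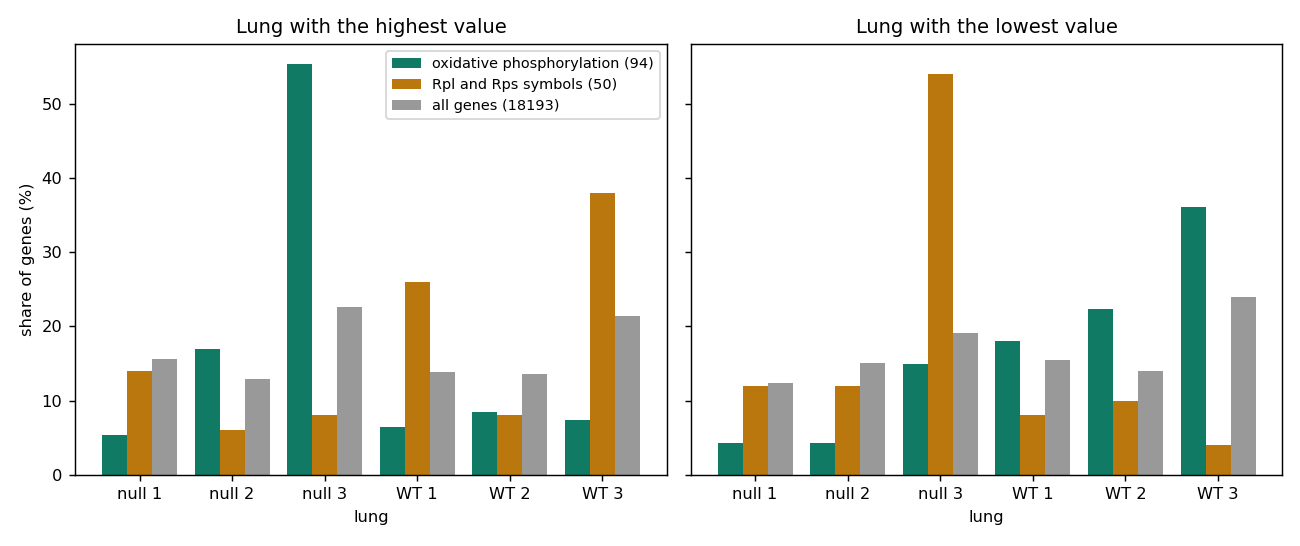
Share of genes (percent) for which each lung held the highest or the lowest of the 6 values, for the 94 oxidative phosphorylation genes, the 50 genes with Rpl or Rps symbols and all genes. Hopx-null lung 3 is the highest for 55.3% of the 94 genes against 22.7% of all genes.

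Genes around the chain gave a mixed picture, and 0 genes of these lists passed the adjusted threshold. Of 22 other assembly factors of complexes III and IV, 16 were higher in Hopx-null lungs (median 0.048). In 4 of them (18.2%, against 6.21% of all genes) the Hopx-null lungs lay above without overlap. Among these were Cox10, which acts in haem A synthesis (0.21), Uqcc2 (0.18) and Pet100 (0.15). In 1 (4.55%, against 4.31% of all genes) the Hopx-null lungs lay below. Of 9 other assembly factors of complexes I and V, 4 were higher (median -0.046). Acad9, which is needed to assemble complex I, was the largest of them, with 8.35, 8.31 and 8.31 in Hopx-null lungs, against 7.85, 8.30 and 7.86 in wild-type lungs. In the citric acid cycle 9 of 12 genes were higher, by no more than 0.10. Of 16 regulators of mitochondrial biogenesis, 8 were higher (median -0.014). The coactivator Ppargc1a differed by -0.26, with 9.27 in wild-type lung 3 and 8.62 to 8.77 in the other 5 lungs. Its relative Ppargc1b was higher without overlap, by 0.36 (adjusted p = 0.878 in limma). Ppargc1b was the 1 regulator without overlap (6.25%, against 6.21% of all genes that lay above). Its probe set was dim, with a mean of 5.97, under the median of every array. The transcription factor genes Nrf1 and Tfam differed by 0.03 and -0.06. Of 10 hypoxia targets, 4 were higher (median -0.035).

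The promoters of these genes are shown because NRF-1, the product of Nrf1, is known to bind many of them. The table of RefSeq promoters (mouse build GRCm38.p6, 250 bases before to 50 after the start) held 83 promoters of 78 of the 94 genes. The palindromic core of the NRF-1 motif, CGCATGCG, searched on both strands, was in 10 of the 83 (12.05%), against 2.89% of the 18010 promoters of measured genes. With any base after CGCA (CGCANGCG, which includes the first motif), it was in 32 (38.6%), against 12.9%. The YY1 motif AAGATGGCG was in 8.43%, against 2.10%. The ETS motif CCGGAAGT was in 6.02%, against 5.86%, and the TATA motif TATAAA in 12.05%, against 9.76%. The oestrogen-related receptor motif TCAAGGTCA was in 2.41%, against 0.344%. The members' promoters had a median of 20 CG dinucleotides, against 16, and a median GC content of 59.0%, against 58.3%. Below are the 250 bases before the start of 4 genes, 5′ to 3′ on the gene's strand, with matches to CGCANGCG in capitals: 2 holders of CGCATGCG, Sdha with 3 looser matches, and the striated isoform Cox7a1 with none. They lie at chr5:108434400-108434649 (minus strand) for Atp5k, chr5:115348959-115349208 (minus strand) for Cox6a1, chr13:74350241-74350490 (minus strand) for Sdha and chr7:30183921-30184170 (plus strand) for Cox7a1.
Atp5k: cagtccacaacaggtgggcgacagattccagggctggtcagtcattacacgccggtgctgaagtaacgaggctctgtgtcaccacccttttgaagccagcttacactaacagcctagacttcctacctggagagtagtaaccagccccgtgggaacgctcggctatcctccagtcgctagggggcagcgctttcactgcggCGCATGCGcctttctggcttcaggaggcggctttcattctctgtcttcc
Cox6a1: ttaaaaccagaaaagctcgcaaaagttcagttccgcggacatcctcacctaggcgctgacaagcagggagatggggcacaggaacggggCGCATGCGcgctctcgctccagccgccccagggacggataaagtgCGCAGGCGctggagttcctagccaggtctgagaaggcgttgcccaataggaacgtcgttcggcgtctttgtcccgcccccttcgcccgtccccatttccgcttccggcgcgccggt
Sdha: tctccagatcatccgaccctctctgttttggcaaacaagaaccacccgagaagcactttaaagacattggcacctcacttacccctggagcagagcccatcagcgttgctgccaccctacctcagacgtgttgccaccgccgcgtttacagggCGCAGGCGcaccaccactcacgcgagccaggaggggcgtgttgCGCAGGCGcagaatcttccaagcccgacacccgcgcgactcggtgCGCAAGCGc
Cox7a1: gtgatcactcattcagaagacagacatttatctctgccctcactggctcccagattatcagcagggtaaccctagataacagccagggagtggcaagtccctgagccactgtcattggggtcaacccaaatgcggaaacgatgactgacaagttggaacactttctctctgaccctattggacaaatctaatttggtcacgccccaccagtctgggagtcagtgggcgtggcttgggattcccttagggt
Of these genes, Atp5k was higher in Hopx-null lungs without overlap (0.09), Cox6a1 and Sdha differed by -0.05 and 0.0003, and Cox7a1 varied with the lung. A match is a description of letters and marks no site as bound.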

How the data were processed

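Total RNA of 3 Hopx-null and 3 wild-type lungs was hybridised to Affymetrix arrays, and the authors deposited 1 table of log2 expression values. The tools listed, per the submitters' processing notes, are RMA and Partek 6.6. No header gives the log base, and base 2 was read from the values' range. RMA equalises the arrays, so a shift of most transcripts would not be seen. Of 45101 probe sets, 64 controls were left out. The platform annotation named 1 gene for 34945, several for 932 and none for 9160 of the others. Each gene took its brightest probe set (mean of 6 lungs), and 10 probe sets naming a member among several genes were not used. Cox7b was not analysed here.

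All 45037 probe sets were fitted by lmFit and eBayes (limma 3.58.1, R 4.3.3), with Benjamini-Hochberg adjustment and a threshold of 0.05, a procedure tested on simulated data. No filter on dim probe sets was set. The number of arrays limits the precision: an exact permutation test of 3 against 3 lungs cannot go below 0.1.

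Named members were the largest difference in each direction and the brightest per complex, members with an unadjusted p under 0.05, isoform sets, core subunits and X-linked genes; others are said to be chosen after seeing values or stand in counts. Members, lists and rules were chosen with earlier results of these data known. The NRF-1 and YY1 motifs were shortened to their cores after longer forms had been counted. Alternatives were repeated normalization, variance models, array weights, filters, a replicate block, a Y-linked covariate, other probe set choices and each lung left out.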

Additional observations from a re-analysis of the deposited data

How the results depend on the processing

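Under every alternative run, 0 members passed the adjusted threshold in limma, and the count of members higher in Hopx-null lungs was at least 66, the value for the 82 subunits alone. Over all 185 probe sets that name 1 member, 145 were higher. The 2 calls over all probe sets became 1 with the replicate block, with the Y-linked covariate, with the mean of all probe sets of a gene and without both lungs numbered 3, and ranged from 1 to 23 with 1 lung left out. The larger counts came without Hopx-null lung 1 (12) and without wild-type lung 1 (23). The 17 members without overlap became 10 with the mean of all probe sets of a gene, ranged from 21 to 39 with 1 lung left out, and were 31 without both lungs numbered 3. Overlap is rarer with fewer lungs: with 1 lung left out, 18.1% to 36.2% of members and 9.77% to 14.2% of all genes lay above. Without both lungs numbered 3, 27.7% of members lay above and 5.32% below, against 14.9% and 12.6% of all genes. The median difference was 0.0219 without both lungs numbered 3 (an alternative added after seeing the data) and 0.0344 to 0.0829 with 1 lung left out. The cause of the lower median was not tested. Over the alternatives, the median of complex I ranged from 0.032 to 0.10 and that of complex III from 0.023 to 0.14.

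Replicate numbers did not pair the lungs: deviations of lungs with the same number correlated at -0.096, -0.121 and 0.183. With the replicate block, 0 members were called. A balanced block leaves every difference unchanged, so the count of 77 higher members could not move. Of 567 alternative values of named members, 36 in 17 members changed sign, all of members with a reported difference of at most 0.26 in size. The variance model, the filters and the replicate block leave each difference unchanged, so the 567 include values that could not change sign. Leaving out wild-type lung 3 turned Ndufa4l2 to 0.03. Dim probe sets, such as those of Cox7b2 and Ndufb4, limit what these arrays can show.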

Other observations

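Ndufb4, a membrane arm subunit of complex I, has 1 probe set that names it alone, and that probe set ranged from 3.45 to 3.51 in Hopx-null lungs and from 3.21 to 3.56 in wild-type lungs, below the lower quartile of all probe sets. A further 2 probe sets name Ndufb4 together with Ndufb4b and Ndufb4c and were not used. They were bright, with overlapping lungs and differences of 0.10 and 0.12.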
